A study of Mus musculus with 6 samples.

Results

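Rab GTPases were profiled at the transcript level in GV-stage fully-grown oocytes (FGOs) of WT and Lsm14b-KO mice. FGOs at this stage have completed growth and wait in prophase of meiosis I. Members were taken by gene symbol, as every row named Rab followed by a number and at most a letter and a digit, which gave 58 of the 24255 genes of the deposited table. Genes named after a Rab that encode its regulators or partners, such as Rab3gap1, fall outside this rule. The 3 WT and 3 Lsm14b-KO libraries were each made from 20 oocytes of females that had received 5 IU of PMSG, which acts like a gonadotropin on follicles, and were killed 46 h later. Both genotypes were kept on a C57BL/6J background, and the Lsm14b-KO females were homozygous for Lsm14b tm1a(KOMP)Mbp, a reporter-tagged insertion that is carried by all cells of the animal and not by the oocyte alone. The age of these females is not given in the sources used here, and nothing says whether libraries of a genotype came from separate females. All p-values therefore measure the spread between libraries.

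Rab proteins are small GTPases that mark the membranes of the secretory and endocytic pathways. Each cycles between a GDP-bound form, held in the cytosol by GDP dissociation inhibitors, and a GTP-bound form that sits on its target membrane through a prenyl anchor and recruits effectors such as tethers and motor adaptors. Guanine nucleotide exchange factors switch Rabs on and GTPase-activating proteins of the TBC family switch them off. In mouse oocytes, Rab11a-positive vesicles are known to organise the actin network that moves the meiotic spindle, and Rab3a and Rab27a act in the transport and exocytosis of cortical granules.

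Values are FPKM, that is, numbers of sequenced fragments divided by transcript length and by how many fragments were mapped in that library, so levels of different genes can be compared per unit length, and every level is relative to the rest of its library. Lsm14b, the targeted gene, had 2.77, 3.98 and 1.72 FPKM in WT. Lsm14b-KO replicates 1, 2 and 3 had 0, 0 and 0.102 FPKM of it. All 12 oocyte markers listed reached 1 FPKM, with sums of 6953 to 8924 FPKM in WT and 6767 to 8746 FPKM in Lsm14b-KO libraries. Of 12 cumulus and granulosa cell markers 3 did (Cyp19a1, Fshr and Inha), the list summed to 9.89 to 13.5 FPKM in WT and 6.23 to 10.4 FPKM in Lsm14b-KO libraries, and Amh, Foxl2 and Inhba were listed at 0 throughout. The 7 red blood cell markers in the table were listed at 0. Relative sequencing depth was 1 to 1.14 in WT, and Lsm14b-KO replicates 1, 2 and 3 were deeper, at 1.32, 1.93 and 2.16. Lsm14b-KO replicate 1 was the Lsm14b-KO library nearest to WT: over all tested genes its log2 values had a Pearson correlation of 0.952 to 0.954 with the WT libraries, of 0.917 with Lsm14b-KO replicate 2 and of 0.960 with Lsm14b-KO replicate 3. The main results are also given without this library.

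The FGOs carried transcripts of a restricted set of Rabs. Of the 58 genes, 11 were listed at 0 in every library and 22 more were above 0 but below 1 FPKM throughout, so that 25 reached 1 FPKM in at least 1 library and entered the test. In WT FGOs, 9 Rabs averaged 10 FPKM or more. Rab11a, the recycling endosome Rab, led in all 6 libraries at 203, 186 and 188 FPKM in WT and 210, 93.5 and 126 FPKM in Lsm14b-KO. It made up 39.6% ± 0.941 (SD, n = 3) of the summed Rab FPKM in WT. In Lsm14b-KO this share was 30.3% ± 6.73 (SD, n = 3). The family summed to 499, 478 and 480 FPKM in WT and to 563, 392 and 424 FPKM in Lsm14b-KO, so the groups overlapped on this scale. As a percent of all FPKM in the library it was 0.0401, 0.0408 and 0.0420 in WT and 0.0547, 0.0695 and 0.0626 in Lsm14b-KO, where all Lsm14b-KO libraries were above all WT libraries. This share has the FPKM total of the library as its divisor. That total was 1141300 to 1244200 for WT and lower, at 1029700, 564670 and 676660, for Lsm14b-KO replicates 1, 2 and 3. In these bulk libraries a lower level per oocyte and fewer oocytes that carry the transcript cannot be told apart.

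**Figure D1:**
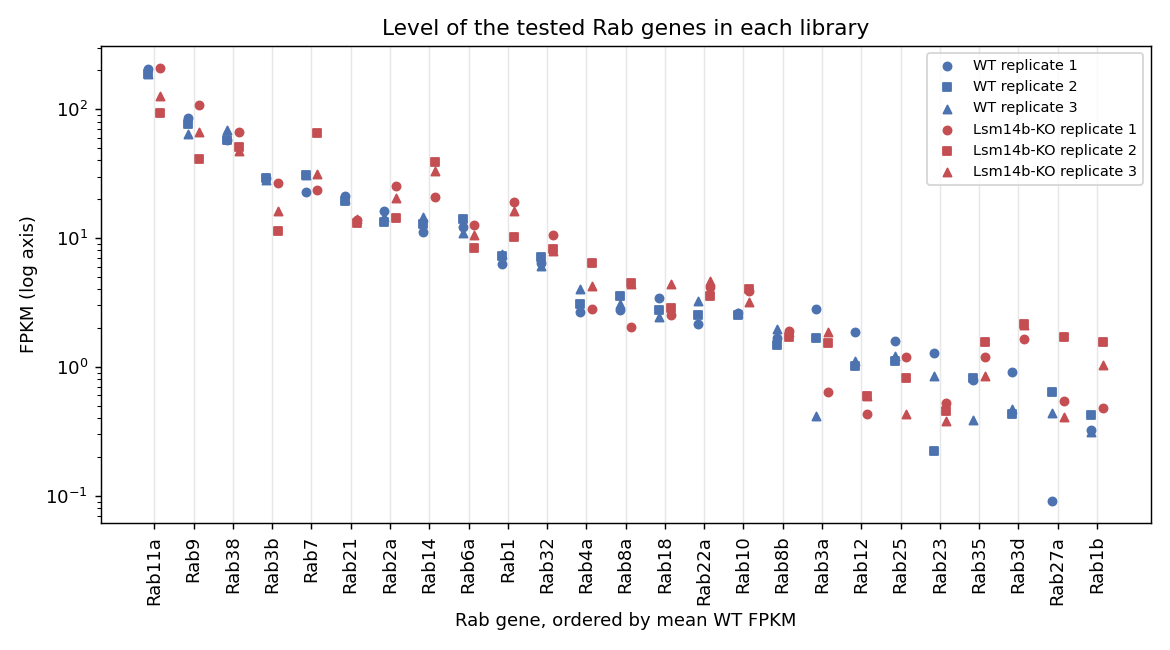
FPKM on a log axis of the 25 tested Rab genes, ordered by mean WT level, with 1 point per library (blue, 3 WT; red, 3 Lsm14b-KO; circle, square and triangle, replicates 1, 2 and 3). Rab11a stood at 93.5 to 210 FPKM in the 6 libraries, and 8 Rabs, with Rab14, Rab1 and Rab3d among them, had all red points above all blue points.

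After Rab11a the WT order was Rab9, Rab38, Rab3b and Rab7. Rab9, which serves transport from late endosomes to the trans-Golgi network, was at 85.6, 76.4 and 64.4 FPKM in WT and 107, 40.8 and 66.3 FPKM in Lsm14b-KO. Rab38, known from the biogenesis of melanosomes and other lysosome-related organelles, was at 57.2, 57.2 and 68.7 FPKM in WT and 66.7, 50.8 and 46.9 FPKM in Lsm14b-KO. For both genes the groups overlapped. In WT replicates 1 and 2 Rab9 was above Rab38 and in WT replicate 3 it was below, so these neighbours in the order did not differ beyond their spread.

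Rab3b belongs to the Rab3 group of regulated exocytosis and was at 29.0, 29.1 and 28.2 FPKM in WT and 26.5, 11.4 and 16.1 FPKM in Lsm14b-KO. All its Lsm14b-KO values were below all WT values, with replicate 1 close to WT. Rab7, the late endosome and lysosome Rab, was at 22.9, 30.7 and 30.6 FPKM in WT and 23.7, 64.8 and 31.6 FPKM in Lsm14b-KO, and Lsm14b-KO replicate 2 alone was far above the others. Rab3b was above Rab7 in WT replicate 1 and below it in WT replicates 2 and 3. The order of these neighbours in WT was thus also within their spread. These 5 most abundant Rabs held 79.3% to 79.7% of the summed Rab FPKM in WT. For Lsm14b-KO replicates 1, 2 and 3 this was 77.1%, 66.6% and 67.8%.

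**Figure D2:**
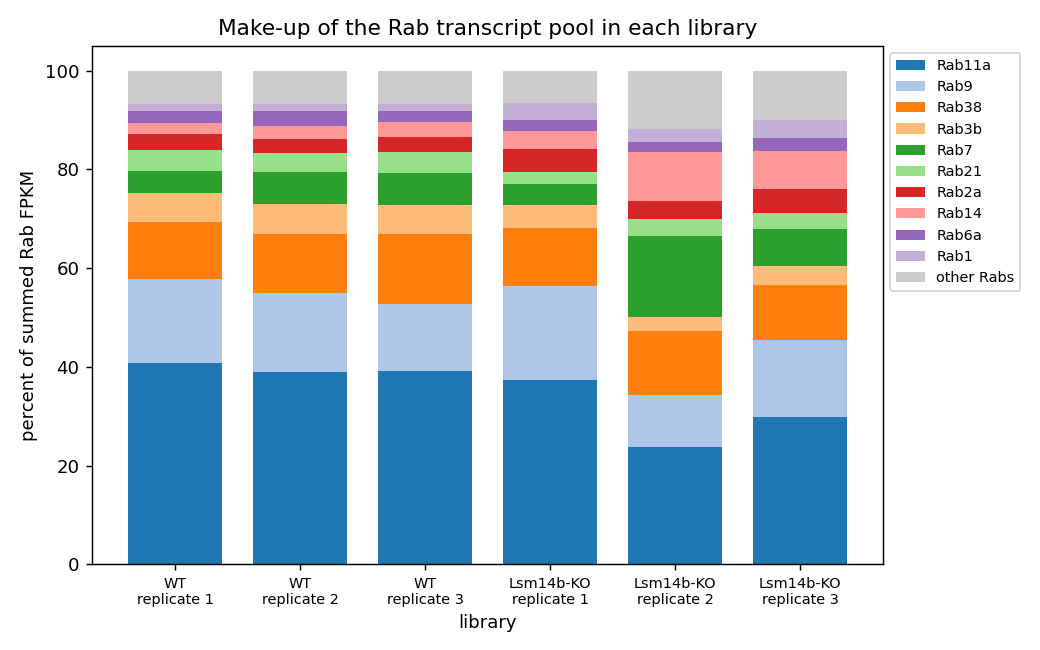
Percent of the summed Rab FPKM taken by the 10 Rabs that are most abundant in WT and by all others together, 1 bar per library. Rab11a took 39.0% to 40.7% in WT and 37.3%, 23.8% and 29.8% in Lsm14b-KO replicates 1, 2 and 3, while Rab14 took 2.24% to 3.02% in WT and 3.69%, 9.94% and 7.81% in Lsm14b-KO.

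Rabs that mark well known compartments in other cells stayed below 1 FPKM here. Rab5a, the early endosome Rab, had values of 0, 0.105 and 0.349 FPKM in WT, and of 0.299, 0.370 and 0.221 FPKM in Lsm14b-KO. Its paralogs Rab5b and Rab5c did not exceed 0.343 FPKM in any library. Rab11b, the paralog of Rab11a, was at 0.260, 0.229 and 0.127 FPKM in WT and 0.0654, 0.668 and 0.421 FPKM in Lsm14b-KO, far below Rab11a in each library. Rab27b, a Rab of secretory granules, was listed at 0 except for 0.0175 FPKM in Lsm14b-KO replicate 3. A gene at 0 here may be one whose estimate failed, and deeper libraries list more genes above 0, with 35 to 37 Rabs above 0 in WT, and 39, 39 and 45 for Lsm14b-KO replicates 1, 2 and 3. The Rabs listed at 0 in all libraries were Rab6b, Rab15, Rab17, Rab19, Rab20, Rab24, Rab26, Rab34, Rab37, Rab39 and Rab42, named after their values were seen.

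Rab14, Rab1 and Rab3d rose in Lsm14b-KO FGOs, and with all 6 libraries no Rab was called lower. The fit was limma on log2(FPKM + 1) over all 6398 tested genes, and a gene was called at a Benjamini-Hochberg adjusted p under 0.05. The 3 calls are 12.0% of the 25 tested Rabs, against a background of 21.6% of all tested genes called in either direction. Called higher were 12.0% of the tested Rabs and 6.38% of all genes, and called lower were 0 Rabs and 15.2% of all genes. At an unadjusted p under 0.05 in the same limma fit, 4 Rabs were higher and 2 were lower, beside 1001 higher and 1517 lower of all 6398 tested genes. These all-gene counts also stand beside the unadjusted counts of groups and lists below. For fits with other settings or fewer libraries no such all-gene count is given. The WT and Lsm14b-KO values did not overlap for 11 Rabs (44.0%), 8 higher and 3 lower, close to the 45.0% of all genes, of which 19.1% were higher and 26.0% lower. The filter bears on such counts, since 4 Rabs (Rab1b, Rab3d, Rab27a and Rab35) reached 1 FPKM only in Lsm14b-KO libraries and 2 (Rab12 and Rab23) only in WT libraries. An exact two-sided permutation test of 3 against 3 libraries cannot go below 0.10, and it gave 0.1 for Rab14, Rab1 and Rab3d.

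Rab14, which directs traffic between the Golgi apparatus and endosomes, was at 11.2, 12.8 and 14.5 FPKM in WT and 20.8, 39.0 and 33.1 FPKM in Lsm14b-KO. All Lsm14b-KO libraries were above all WT libraries, and replicate 1 was the lowest of them. The log2 fold change, Lsm14b-KO minus WT, was 1.17 ± 0.30 (SE) with a limma adjusted p of 0.0316. It moved from rank 8 to rank 5 among the Rabs by mean FPKM.

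Rab1, the mouse symbol in the table for Rab1a, controls transport from the ER to the Golgi apparatus. It was at 6.32, 7.29 and 7.46 FPKM in WT and 19.1, 10.2 and 16.1 FPKM in Lsm14b-KO. Here the groups did not overlap either, but replicate 1 was the highest Lsm14b-KO library and replicate 2 the lowest. The log2 fold change was 0.97 ± 0.28 (SE) with a limma adjusted p of 0.0438.

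Rab3d, found on secretory granules of exocrine cells, was at 0.909, 0.429 and 0.475 FPKM in WT and 1.63, 2.15 and 2.13 FPKM in Lsm14b-KO. Its log2 fold change was 0.90 ± 0.21 (SE) with a limma adjusted p of 0.0220. Its level is low, so log2(FPKM + 1) understates the ratio of the group means, and with a pseudocount of 0.01 the log2 fold change was 1.76. All WT values were under 1 FPKM, so Rab3d entered the test through its Lsm14b-KO values.

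**Figure D3:**
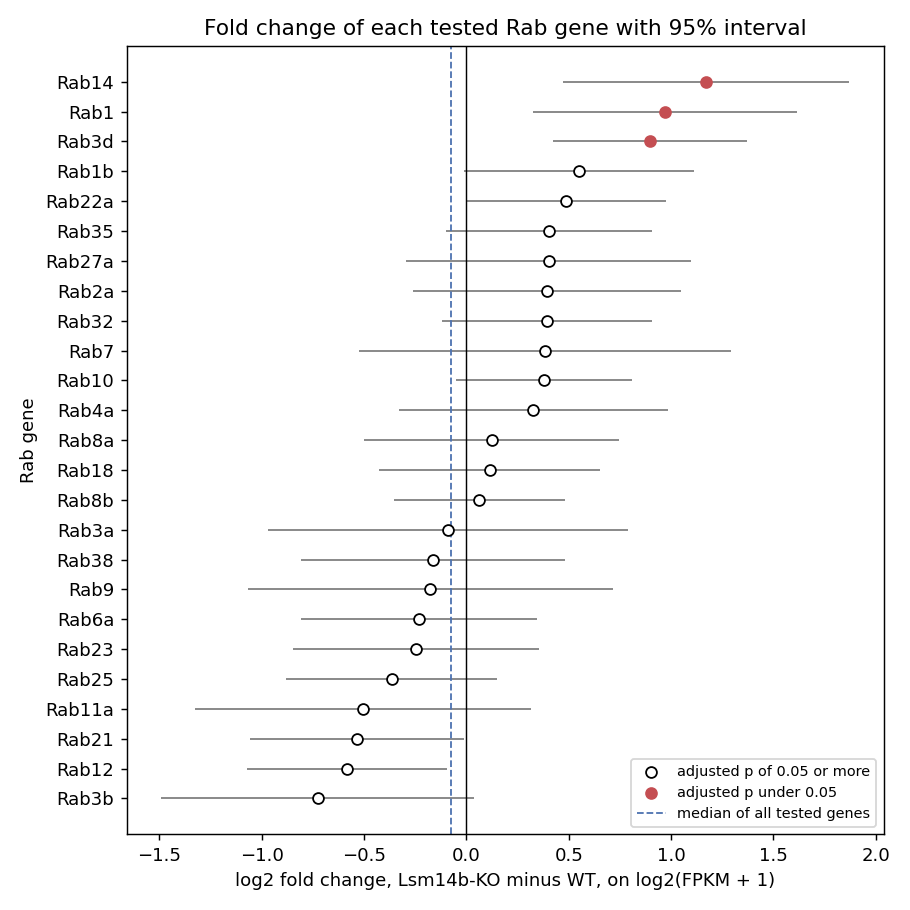
Log2 fold change (Lsm14b-KO minus WT, on log2(FPKM + 1)) of each tested Rab with its 95% interval from limma. Filled points mark the 3 Rabs with an adjusted p under 0.05, and the dashed line marks the median of all 6398 tested genes at -0.08, below the Rab median of 0.12.

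These calls depended on single libraries. Without Lsm14b-KO replicate 1 limma called 7 Rabs, 4 higher and 3 lower, among 2898 called genes, which are 45.3% of all tested genes. Rab14 was then at 1.43 (adjusted p = 0.00228), Rab3d at 0.98 (adjusted p = 0.010) and Rab1 at 0.79 (adjusted p = 0.0337) in limma's log2 fold change. Rab1b, the close paralog of Rab1, joined them at 0.76 (limma adjusted p = 0.0212). Rab11a at -0.82 (adjusted p = 0.0169), Rab3b at -1.03 (adjusted p = 0.00788) and Rab21, an endosomal Rab of integrin traffic, at -0.55 (adjusted p = 0.0443) were lower in that limma fit. Without Lsm14b-KO replicate 2 only Rab1 was called, and without WT replicate 1 only Rab3d. Without WT replicate 2, WT replicate 3 or Lsm14b-KO replicate 3 no Rab passed, with 4, 5 and 3 Rabs at an unadjusted limma p under 0.05. Of all tested genes those fits called, in the same order, 13.5%, 6.19%, 6.21%, 7.22% and 4.92%, against 21.6% with all libraries. Fewer calls in them were therefore not particular to the Rabs.

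The 3 risen Rabs lie at separate places in the mouse genome. In GENCODE vM21 (GRCm38) Rab14 is at chr2:35180205-35201120 on the minus strand, Rab1 at chr11:20201432-20226856 on the plus strand, Rab3d at chr9:21907491-21918192 on the minus strand, and Rab11a at chr9:64715299-64737758 on the minus strand. None of the 3 risen Rabs overlaps another annotated gene or has a near-identical annotated copy. Among all tested Rabs, 6 have such copies that could take or lend reads, and 6 share their deposited locus with another gene. Rab3b and Rab6a are in both counts, and Rab9 and Rab7 are among those with copies. LSM14B is an RNA-binding protein and oocytes regulate stored mRNA through elements near its 3′ end, so the last bases up to the poly(A) signal are shown for the 3 risen Rabs and for the most abundant Rab. The bases are those of the GENCODE transcripts, which end in the last exon, and capitals mark the signal AATAAA or ATTAAA nearest to the end. The marked match starts 6 nt from the transcript end in Rab3d and 11 nt in Rab14. Both of these stretches also hold an earlier match that is not marked.
Rab14: tgtaaataaagtacctgtatctagATTAAA
Rab1: attttccatctatgagaatttcacAATAAA
Rab3d: agtccaggaaaaaatgtataataaAATAAA
Rab11a: tgatttggagtacatcctcatcctAATAAA

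The signal, searched on the sense strand in the last 50 nt, was found in 20 of 25 tested Rabs (80.0%) and in 77.6% of 6318 tested genes. The cytoplasmic polyadenylation element TTTTAT or TTTTAAT lay within the 100 nt before the signal in 5 of those 20 Rabs (25.0%) and in 20.8% of all genes with a signal. Rab14, Rab1 and Rab3d had 0 such elements and Rab11a had 2, both upstream of the bases printed. A match is a run of letters and not a shown site of use. Transcript length was 1081 to 7155 nt over the tested Rabs. Its Spearman correlation with the log2 fold change was 0.08 over 25 Rabs and 0.36 over 6319 tested genes, a description across genes of the same libraries.

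Rabs of the recycling endosome included Rab11a and Rab14. Of 8 members 5 were tested, with 1 called higher, 0 called lower and a median log2 fold change of 0.33. Rab11a had a log2 fold change of -0.50 ± 0.36 (SE) and a limma adjusted p of 0.310, with Lsm14b-KO replicate 1 above every WT library and replicates 2 and 3 below, and its sign turned with scaling to equal library totals. Rab35, which recycles cargo to the plasma membrane, was at 0.798, 0.814 and 0.386 FPKM in WT and 1.20, 1.57 and 0.854 FPKM in Lsm14b-KO. Its groups did not overlap, and its log2 fold change of 0.40 ± 0.22 (SE) had a limma adjusted p of 0.201.

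Of the Rabs of ER-to-Golgi and Golgi traffic, 5 of 16 were tested, with Rab1 called higher, 0 called lower and a median log2 fold change of 0.39. Rab6a, which serves retrograde traffic at the Golgi apparatus, was at 12.2, 14.1 and 10.9 FPKM in WT and 12.6, 8.37 and 10.6 FPKM in Lsm14b-KO. The groups overlapped, and the log2 fold change was -0.23 ± 0.25 (SE) with a limma adjusted p of 0.502. Rab1b was at 0.322, 0.421 and 0.311 FPKM in WT and 0.482, 1.57 and 1.03 FPKM in Lsm14b-KO, which did not overlap (0.55 ± 0.24 SE, limma adjusted p = 0.132). Rab1 was 17.3 to 24.0 times the level of Rab1b in WT and 39.6, 6.52 and 15.6 times in Lsm14b-KO replicates 1, 2 and 3, so this ratio overlapped between genotypes.

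Of 12 Rabs of regulated and polarised secretion 7 were tested, with Rab3d called higher, 0 called lower and log2 fold changes from -0.73 to 0.90. Rab3b, at -0.73 ± 0.33 (SE) with a limma adjusted p of 0.140, and Rab3d, at 0.90, stood at the ends of this range, although they are paralogs. Within each library, where scaling cancels, Rab3b was 31.9, 67.7 and 59.3 times Rab3d in WT and 16.2, 5.29 and 7.55 times in Lsm14b-KO, and every Lsm14b-KO ratio was below every WT ratio. On FPKM, Rab3b was lower and Rab3d higher in every Lsm14b-KO library than in every WT library, so the separation of their ratio follows from those values and adds nothing to them. The fall of Rab3b depended on the scale, at -0.07 on TPM (limma adjusted p = 0.835) and -0.38 after quantile normalization (limma adjusted p = 0.374). This ratio comes from a rule that pairs all tested paralogs of one number, carries no test, and was the only 1 of 5 pairs that did not overlap. Rab3a to Rab3b, Rab3a to Rab3d, Rab8a to Rab8b and Rab1 to Rab1b overlapped.

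Rab3a was at 2.79, 1.68 and 0.413 FPKM in WT and 0.640, 1.54 and 1.86 FPKM in Lsm14b-KO, a spread within WT that exceeded the difference between genotypes (log2 fold change -0.09 ± 0.38 SE, limma adjusted p = 0.870). Rab27a was at 0.0905, 0.634 and 0.439 FPKM in WT and 0.545, 1.72 and 0.410 FPKM in Lsm14b-KO, and its groups overlapped (0.40 ± 0.30 SE, limma adjusted p = 0.336). Both cortical granule Rabs were low in FGOs and had wide intervals, from -0.97 to 0.79 for Rab3a and from -0.29 to 1.10 for Rab27a on the log2 scale. Rab8a, which directs vesicles to the plasma membrane, was at 2.74, 3.53 and 3.07 FPKM in WT and 2.06, 4.44 and 4.37 FPKM in Lsm14b-KO. It also overlapped between genotypes (0.12 ± 0.27 SE, limma adjusted p = 0.743).

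Rabs of late endosomes, lysosomes and autophagy gave 3 tested genes of 5, with 0 called in either direction, and 1 of them, Rab12, at an unadjusted limma p under 0.05. Rab7 had a log2 fold change of 0.38 ± 0.39 (SE, limma adjusted p = 0.474) and Rab9 of -0.18 ± 0.39 (SE, limma adjusted p = 0.747). Rab12, which sends receptors from recycling endosomes to lysosomes, was at 1.88, 1.01 and 1.12 FPKM in WT and 0.434, 0.594 and 0.597 FPKM in Lsm14b-KO. Every Lsm14b-KO value was below every WT value, and its log2 fold change of -0.58 ± 0.21 (SE) had a limma adjusted p of 0.0829. Rab38 had a log2 fold change of -0.16 ± 0.28 (SE, limma adjusted p = 0.673), and Rab32, its partner in lysosome-related organelles, of 0.39 ± 0.22 (SE, limma adjusted p = 0.217).

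Of the early endosome Rabs, 2 of 8 were tested, with 0 called in either direction and both at an unadjusted limma p under 0.05. Rab21 was at 21.2, 19.2 and 20.2 FPKM in WT and 13.8, 13.04 and 14.0 FPKM in Lsm14b-KO, which did not overlap. Rab22a was at 2.15, 2.55 and 3.26 FPKM in WT and 4.14, 3.54 and 4.64 FPKM in Lsm14b-KO, which did not overlap in the opposite direction. The log2 fold changes were -0.54 ± 0.23 (SE, limma adjusted p = 0.120) for Rab21 and 0.49 ± 0.21 (SE, limma adjusted p = 0.124) for Rab22a. On TPM that of Rab21 turned to 0.12 (limma adjusted p = 0.746). Rab1b, Rab2a, Rab5b, Rab5c, Rab12, Rab21, Rab22a, Rab23 and Rab32 were named after their values were seen.

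The scale of the values mattered for the sign of the abundant Rabs. Lsm14b-KO libraries had lower FPKM totals, and scaling each library to the same total (TPM) raised the median of all genes by 0.48 on the log2 scale. On that scale limma called 6 of the 25 tested Rabs higher, Rab14, Rab1, Rab3d, Rab22a, Rab2a and Rab32, and 0 lower. Of all 6398 tested genes it called 833 higher, and 20.6% in either direction. Of the 1319 called genes 63.2% were higher, against 29.5% on FPKM. The median of the tested Rabs stood above the median of all tested genes by 0.20 on FPKM, 0.29 on TPM, 0.30 after quantile normalization and 0.12 after correction for length and GC content. Rab14, Rab1 and Rab3d were called on all of these scales. With no filter on FPKM, which brought in 14325 genes, the Rab median was above the all-gene median by only 0.015. Rab11a, Rab38 and Rab9 had positive fold changes on TPM and after quantile normalization, none of them past the threshold. Ratios to Rab11a within a library do not depend on the scale: Rab14 was at 0.0550 to 0.0770 of Rab11a in WT and 0.0990, 0.417 and 0.262 in Lsm14b-KO, and Rab1 at 0.0311 to 0.0396 in WT and 0.0909, 0.109 and 0.128 in Lsm14b-KO. Both ratios were higher in every Lsm14b-KO library than in every WT library, and they carry no test because the pairs rest on the calls.

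**Figure D4:**
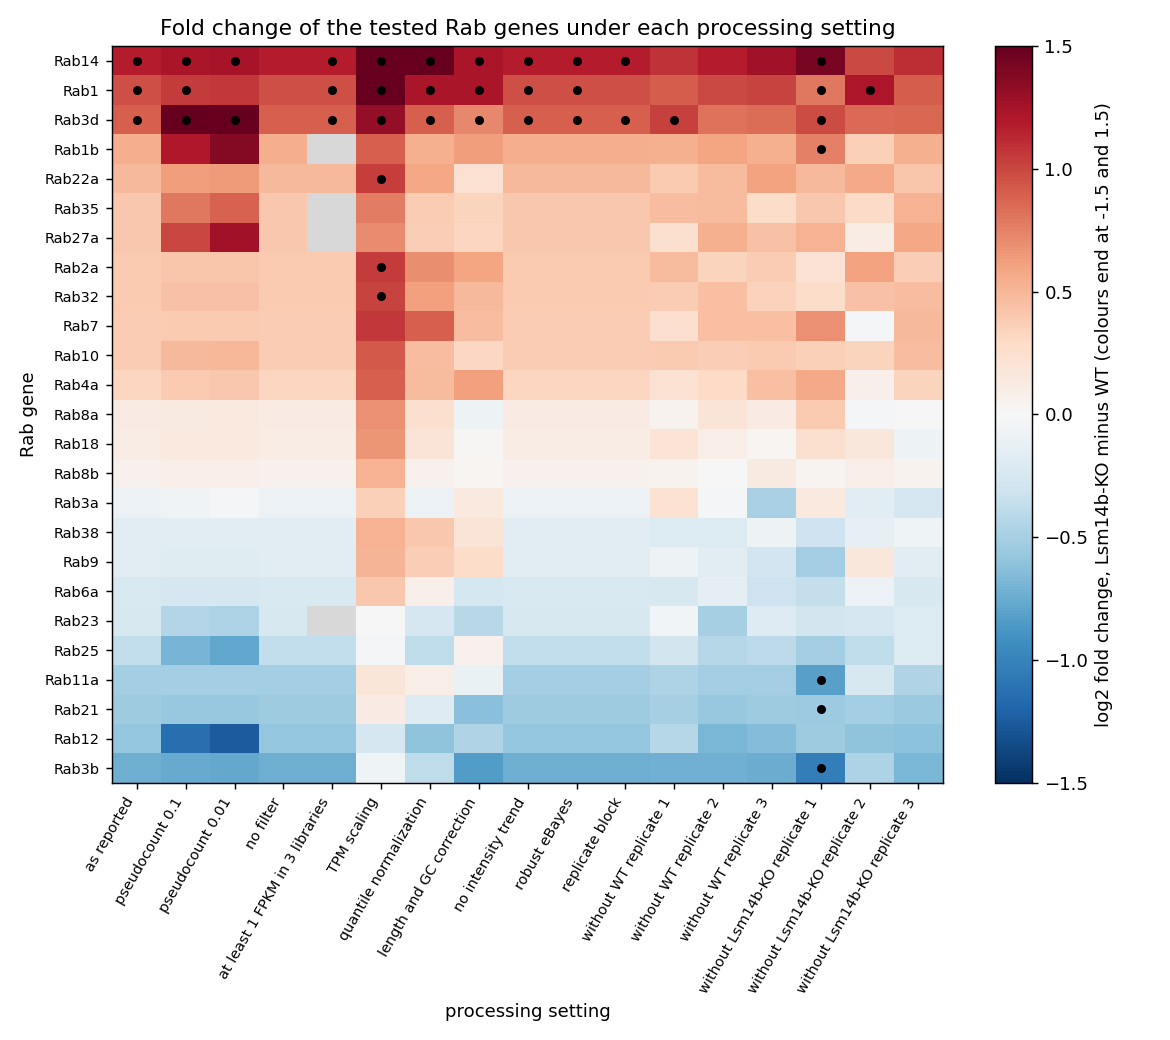
Log2 fold change of the 25 tested Rabs (rows) under each processing setting (columns), with colours that end at -1.5 and 1.5, black dots for an adjusted p under 0.05 and grey where a gene was not tested. Rab14, Rab1 and Rab3d were positive in every column, and Rab11a, Rab21 and Rab3b had dots, all negative, only without Lsm14b-KO replicate 1.

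The machinery that loads, switches and reads Rabs was described from lists of known factors. Exchange factors had 3 calls among 6 tested of 37, all lower, beside 21.6% of all tested genes called and 15.2% called lower, with a median log2 fold change of -0.46. Rin3, an exchange factor of the Rab5 group, was at 10.5, 11.5 and 10.8 FPKM in WT and 4.72, 2.07 and 2.46 FPKM in Lsm14b-KO and fell by 1.60 on the log2 scale (SE 0.28, limma adjusted p = 0.00822). Mon1a, part of the exchange factor of Rab7, fell by 1.20 on the log2 scale (SE 0.24, limma adjusted p = 0.0137). Dennd6a, an exchange factor of Rab14 named after its values were seen, was at 7.53, 7.28 and 6.80 FPKM in WT and 2.99, 3.35 and 3.18 FPKM in Lsm14b-KO and fell by 0.98 on the log2 scale (SE 0.19, limma adjusted p = 0.0137). In all 3 genes no Lsm14b-KO library reached the lowest WT library. On TPM only Rin3 was called, and the median of this list turned to 0.05. Without WT replicate 2 or Lsm14b-KO replicate 3 none of the 3 was called (limma adjusted p 0.0502 to 0.0742). Without WT replicate 1 Dennd6a was not called, and without WT replicate 3 neither Dennd6a nor Mon1a was.

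Subunits of TRAPP, the complex that activates Rab1 and related Rabs at the Golgi apparatus, had 3 calls among 11 tested (27.3%), all lower. Of all tested genes 21.6% were called and 15.2% were called lower. The median log2 fold change of the subunits was -0.47. Trappc5 was at 41.6, 43.0 and 39.4 FPKM in WT and 9.86, 10.5 and 9.37 FPKM in Lsm14b-KO and fell by 1.96 on the log2 scale (SE 0.23, limma adjusted p = 0.00228). Trappc2l was at 55.4, 62.2 and 65.0 FPKM in WT and 40.6, 8.79 and 11.5 FPKM in Lsm14b-KO and fell by 1.84 on the log2 scale (SE 0.52, limma adjusted p = 0.0407). Trappc4, named after its values were seen, fell by 1.39 on the log2 scale (SE 0.36, limma adjusted p = 0.0304). The other 8 did not pass, and Trappc5 was the only subunit called on TPM and after quantile normalization. Trappc2l and Trappc4 were also not called with no filter, nor in any fit that left out a library other than Lsm14b-KO replicate 1 (limma adjusted p 0.0661 to 0.151). With a pseudocount of 0.01 the limma adjusted p of Trappc2l was 0.0514.

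**Figure D5:**
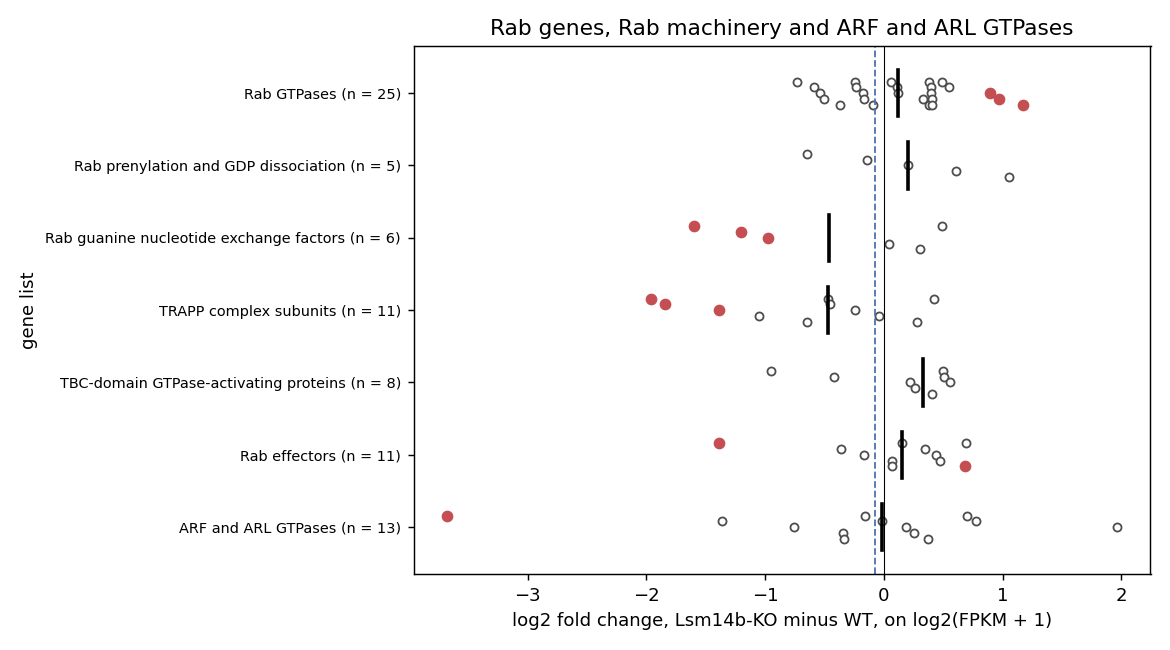
Log2 fold change (Lsm14b-KO minus WT, on log2(FPKM + 1)) of the tested genes of each list, 1 point per gene, filled red where the limma adjusted p was under 0.05. Black bars mark list medians, from -0.47 for TRAPP subunits to 0.33 for TBC-domain proteins, and the dashed line the median of all tested genes at -0.08, with red points of the Rab list to the right and those of the exchange factor and TRAPP lists to the left.

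Effectors had 2 calls among 11 tested of 43 (18.2%, beside 21.6% of all tested genes), 1 in each direction. Uso1, a tether that Rab1 recruits, was at 10.6, 12.9 and 11.9 FPKM in WT and 4.88, 3.22 and 3.69 FPKM in Lsm14b-KO and fell by 1.39 on the log2 scale (SE 0.23, limma adjusted p = 0.00709). On TPM its limma adjusted p was 0.0519, and without Lsm14b-KO replicate 3 it was 0.0515. Bicd2, a dynein adaptor that binds Rab6, was at 0.354, 0.724 and 0.287 FPKM in WT and 1.38, 1.27 and 1.31 FPKM in Lsm14b-KO and rose by 0.68 (SE 0.20, limma adjusted p = 0.0450). Bicd2 reached 1 FPKM only in Lsm14b-KO libraries, and its adjusted p was 0.05 or more after quantile normalization (0.0528), correction for length and GC content (0.184), with no filter (0.0821), a pseudocount of 0.01 (0.0534), no intensity trend (0.0550) or the replicate block (0.0758), and without any library other than Lsm14b-KO replicate 1 (0.0659 to 0.137). Among 8 tested TBC-domain proteins and 5 tested prenylation and GDP dissociation factors limma called 0 genes, with 2 and 3 genes at an unadjusted p under 0.05. Their medians were 0.33 and 0.20. Of the 5 tested prenylation and GDP dissociation factors, 2 were called on TPM and 2 after quantile normalization, all higher. After correction for length and GC content 1 was called higher and 1 lower, and with the replicate block 1 was called higher. Of all tested genes these settings called 20.6%, 19.9%, 22.8% and 19.4%. Without Lsm14b-KO replicate 1, 3 of the prenylation and GDP dissociation factors and 2 TBC-domain proteins were called. Over all machinery lists that fit called 16 of 41 genes (39.0%, beside 45.3% of all tested genes), against 8 (19.5%, beside 21.6%) with all libraries.

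ARF and ARL GTPases, which act in coat recruitment and membrane traffic beside the Rabs, served as a comparison. Of 13 tested 1 was called (7.69%, beside 21.6% of all tested genes), Sar1b, the GTPase of the COPII coat at ER exit sites, which was at 509, 492 and 474 FPKM in WT and 66.6, 21.4 and 36.8 FPKM in Lsm14b-KO and fell by 3.68 on the log2 scale (SE 0.42, limma adjusted p = 0.00207). With all 6 libraries and no block the list had no gene called higher, with 2 at an unadjusted limma p under 0.05. Without Lsm14b-KO replicate 1, 3 were called higher and 3 lower, and with the replicate block 1 was called higher. Its median was -0.01 on FPKM and 0.40 on TPM, beside 0.12 and 0.69 for the Rabs. Whether the Rabs differ from this family was not tested.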

How the data were processed

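RNA-Seq libraries of 3 WT and 3 Lsm14b-KO FGO pools were analysed, grouped by their titles and genotype labels. Per the labels, the authors amplified RNA by Smart-seq2, aligned reads to mm10 with TopHat2 2.0.13, and the deposited FPKM values per gene come from Cufflinks 2.2.1. The labels name different library kits in separate places, so the kit is not stated here. The annotation and strandedness are not given in the sources used here, and overlapping genes on opposite strands may share reads. The table's columns of fold changes, p-values and q-values are the authors' own comparison and were not used. FPKM holds no counts, so no count model was run and counting intervals could not be given. Depth was compared between libraries only as a ratio, from the commonest ratio of very low values.

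The 6398 genes that reached 1 FPKM in any library were fitted on log2(FPKM + 1) with limma 3.58.1 in R 4.3.3 (lmFit, eBayes with trend, genotype as the only term, two-sided), and p-values were adjusted by Benjamini-Hochberg over all of them. Fold changes on this scale understate those of low genes. The script was tested on simulated data. Gene positions, transcript lengths and 3′ ends came from GENCODE vM21 (GRCm38, the assembly of mm10), which matched all 58 Rabs, and near-identical copies from blastn 2.17.0 (at least 95% identity over 200 nt). The Rabs named by rule were those with an adjusted p under 0.05, the 5 highest by mean WT FPKM, and Rab1, Rab3a, Rab5a, Rab6a, Rab7, Rab8a, Rab11a, Rab11b, Rab14, Rab27a, Rab27b and Rab35. From each other list, the 2 largest rises and 2 largest falls among called genes were named. The members, the compartment groups and the lists were chosen with earlier results of these data known. Alternatives were pseudocounts of 0.1 and 0.01, filters, TPM and quantile scaling, a loess correction for length and GC content, other variance models, replicate number as a block, and leaving out each library. A further comparison list is not reported here.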

Additional observations from a re-analysis of the deposited data

How the results depend on the processing

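The positive direction of Rab14, Rab1 and Rab3d held under all 16 alternatives, but their calls did not: limma's adjusted p was under 0.05 in 10 for Rab14 (0.00228 to 0.130), 9 for Rab1 (0.00787 to 0.155) and 11 for Rab3d (0.010 to 0.0961). With no filter, 720 genes, 0 Rabs (10 at an unadjusted p under 0.05), 0 higher Rabs and 5 machinery genes were called. The Rab median was then 0.034, beside 0.019 for all genes. That alternative tests 14325 genes, and the cause of the lost calls was not tested. TPM gave 6 Rabs, all 6 higher, beside 833 higher of all 6398 tested genes, and a Rab median of 0.69. Quantile normalization gave a median of 0.37 with 42.4% of calls higher, and the length and GC correction a median of 0.23 with 45.2% higher. Leaving out 1 library moved the called genes from 315 to 2898, called Rabs from 0 to 7 (higher 0 to 4, lower 0 to 3), machinery genes from 1 to 16, Rabs whose groups did not overlap from 11 to 18, and the Rab median from 0.052 to 0.24. The highest values all came without Lsm14b-KO replicate 1. Leaving out a library can only keep or raise the number of genes whose groups do not overlap. That number is not given here for all genes, so the rise cannot be read as particular to the Rabs.

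Among the Rabs named by rule, fold changes of those not called turned sign as follows, with the cause not tested. On TPM they were 0.18 for Rab11a, 0.52 for Rab38, 0.36 for Rab3a, 0.41 for Rab6a and 0.51 for Rab9. After quantile normalization they were 0.10 for Rab11a, 0.41 for Rab38, 0.073 for Rab6a and 0.37 for Rab9. The length and GC correction gave 0.19 for Rab38, 0.15 for Rab3a, -0.082 for Rab8a and 0.27 for Rab9. Leaving out 1 library gave Rab3a 0.23 (WT replicate 1) and 0.15 (Lsm14b-KO replicate 1), Rab7 -0.019, Rab8a -0.019 and Rab9 0.17 (Lsm14b-KO replicate 2), and Rab8a -0.0084 (Lsm14b-KO replicate 3). Over the 6 fits without 1 library the values ran from -0.48 to 0.23 for Rab3a, -0.019 to 0.69 for Rab7, -0.019 to 0.40 for Rab8a and -0.52 to 0.17 for Rab9. Of the Rabs not named by rule, Rab21 turned to 0.12 on TPM, and turns of others are not listed here.

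Deviations of same-numbered libraries from their group means correlated at 0.19, -0.13 and 0.02 over 6398 genes. Differently numbered libraries were not compared in this way, so these values cannot tell whether the replicate numbers pair the samples. With the replicate block limma called 1244 genes and 2 Rabs, Rab14 and Rab3d, with 8 machinery genes and a Rab median of 0.12.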
